A study of Homo sapiens with 32 samples.

Results

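The comparison of 165 with 105 minutes of release from a mitotic block follows cells as they move on from that block. It asks which genes were labelled more or less at the later time. Its members are 17360 of the 24242 genes in the table, those with at least 10 FPKM at 165 or 105 minutes. FPKM are fragments scaled to length and to sequencing depth. All samples were HUH7, an established human hepatoma line, grown without any stated genetic change. The 165 minute group and the 105 minute group held 3 libraries each, 6 of the 32 samples of the series. Both had been kept in 2 mM thymidine for 24 hours, freed for 2 hours and held for 16 hours in nocodazole at 0.06 ug/mL, then shaken off, washed and replated. New RNA was marked for 40 minutes with 0.5 mM 5-ethynyl uridine (EU). The labels do not say whether the stated minute opens or closes that pulse. The same table also holds release groups at 0, 40, 80 and 300 minutes and an asynchronous culture, which was labelled with EU but not blocked. The authors gave 1 pooled value per transcript for each group. No value has a replicate error, no p-value can be had, and a gene is called higher or lower by size alone, at 2-fold or more on FPKM + 1.

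EU is a uridine analogue that polymerases build into growing transcripts, so captured EU-RNA reports recent transcription, with introns, more than stored mRNA. Cells that leave mitosis rebuild nuclei and restart RNA polymerase II across the genome, and in G1 they meet growth signals, make ribosomes and decide whether to replicate DNA. In hepatoma cells the restarting programme also includes liver genes such as albumin and fibrinogen. No measurement of cell-cycle phase is in the table, so times are given here as minutes of release.

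All 10 HUH7 markers passed the level filter, between 39.1 FPKM for APOA1 and 1553 FPKM for HNF4A at 165 minutes, and between 50.3 FPKM for APOA1 and 1497 FPKM for FOXA2 at 105 minutes. Of 18 markers of stroma and endothelium 7 passed, with a summed level of 831 FPKM at 165 and 784 FPKM at 105 minutes over all 18. LUM, a matrix proteoglycan, and PDGFRA, a growth factor receptor, made up most of it, at 399.7 and 277 FPKM at 165 minutes and 418 and 179 FPKM at 105 minutes. THY1 was listed at 0 at 165 minutes. Low values repeated in steps whose size, times annotated gene length, was 2.32 FPKM kb at 165 minutes and 2.66 FPKM kb at 105 minutes. If a step is 1 read, a 10 kb gene at 10 FPKM rests on 43.0 reads at 165 and 37.6 reads at 105 minutes, a counting error of 15.2% and 16.3%. Reads given below are such equivalents, and their 95% intervals cover counting error only. A lower FPKM can come from fewer cells making an RNA or from less RNA per cell, and these cannot be told apart in bulk samples.

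More genes stood lower than higher at 165 minutes. Of the 17360 genes, 370 (2.13%) were at least 2-fold higher and 969 (5.58%) at least 2-fold lower than at 105 minutes. With at least 50 read equivalents asked for in the higher column, 143 were higher and 556 lower, and with a level filter of 1 FPKM 618 were higher and 1283 lower. At 1.5-fold the counts were 1248 higher (7.19%) and 2699 lower (15.5%). The median gene differed by -0.09 on the log2 scale, and relative to that median 450 genes (2.59%) were higher and 806 (4.64%) lower. The steps on either side share a column with this one, so only their own counts are given. The step of 105 against 80 minutes had 341 higher (1.93%) and 393 lower (2.23%) of 17653 genes, and the step of 300 against 165 minutes had 554 higher (3.24%) and 750 lower (4.38%) of 17106.

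Small RNA genes made up a large part of these calls and rest on few reads. The 881 microRNA genes gave 153 higher and 185 lower, and 10 FPKM over 100 bases amounts to 0.43 reads at 165 and 0.376 reads at 105 minutes. Of 35 small nuclear RNA genes 4 were higher and 16 lower, with medians of 15.3 FPKM at 165 and 54.6 FPKM at 105 minutes, at similarly short lengths. The 13843 protein-coding genes gave 128 higher (0.925%) and 543 lower (3.92%), and the 1714 long noncoding genes 58 higher (3.38%) and 176 lower (10.3%). Shares of all genes set beside the gene lists below also count small RNA genes, and both are larger than the protein-coding shares. The 186 higher and 719 lower protein-coding and long noncoding genes are described from here on.

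**Figure D1:**
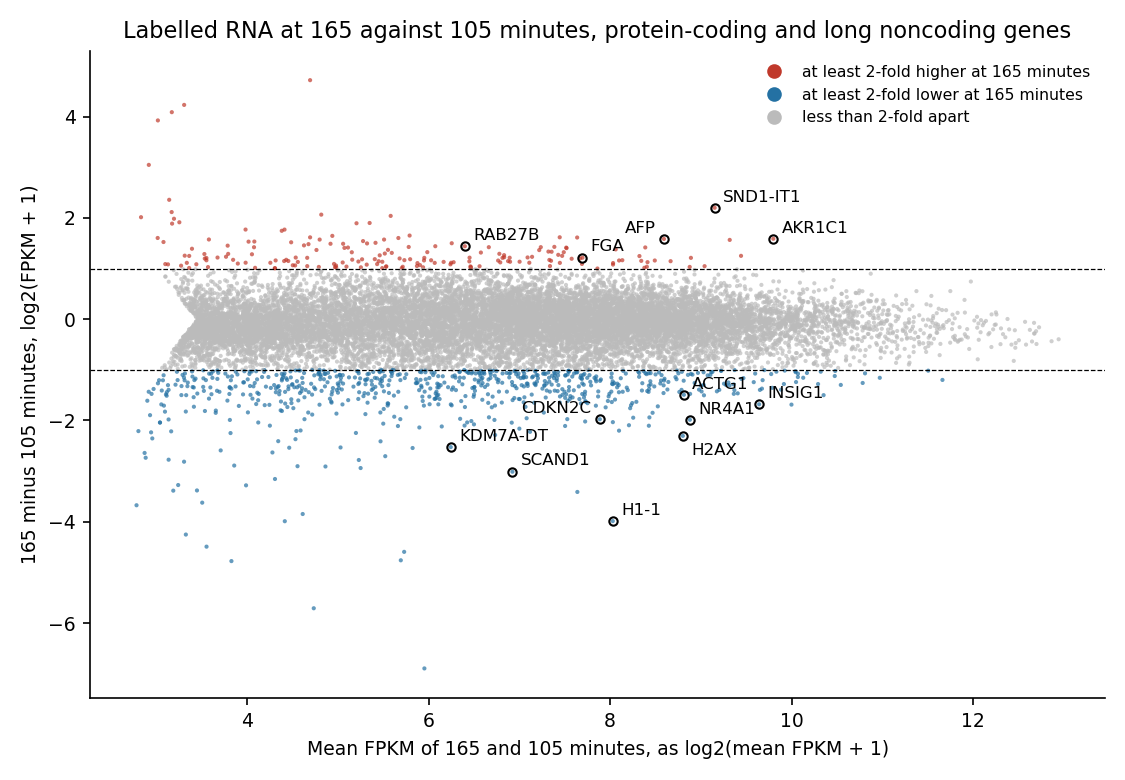
Difference of 165 minus 105 minutes on the log2(FPKM + 1) scale (vertical axis) against the level of each gene (horizontal axis) for 15557 protein-coding and long noncoding genes, 1 point a gene, with dashed lines at 2-fold. The 719 lower genes outnumber the 186 higher ones, and among strongly labelled genes SND1-IT1 stood highest above the line while SCAND1, H2AX and H1-1 stood far below it.

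Among strongly labelled genes, the higher end held liver and detoxification genes, long genes and a transcript from within an intron. AFP encodes alpha-fetoprotein, the fetal counterpart of albumin that many hepatomas secrete. It stood at 579 FPKM at 165 minutes against 192 FPKM at 105 minutes, a ratio of 3.01 with a counting interval of 2.84 to 3.20. ALB, which encodes albumin, stood at 357 FPKM at 165 against 165 FPKM at 105 minutes. FGA, a fibrinogen chain, stood at 289 FPKM at 165 and 124 FPKM at 105 minutes. Earlier in the release FGA had been higher, at 535 FPKM at 0 and 1197 FPKM at 40 minutes, before 161 FPKM at 80 minutes. F5, coagulation factor V, gave 163 FPKM at 165 minutes and 73.7 FPKM at 105 minutes. These were the 4 higher genes among 55 liver secreted and metabolic genes that passed the filter, 7.27% against 2.13% of all genes. The orosomucoid gene ORM2 was the lower one, at 9.78 FPKM from 14 reads at 165 minutes and 29.1 FPKM from 37 reads at 105 minutes. The list as a whole had a median of 0.20 relative to all genes, with 30 members above 0 and 25 below.

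The liver genes did not move as a block. The other fibrinogen chains FGB and FGG stood within 2-fold of their 105 minute level, FGB at 484 FPKM at 165 minutes against 530.3 FPKM at 105 minutes and FGG at 446 FPKM at 165 and 344.5 FPKM at 105 minutes. TTR, the thyroid hormone carrier transthyretin, stood at 49.3 FPKM at 165 and 72.3 FPKM at 105 minutes. APOB, the protein of low density lipoprotein, stood at 300.2 FPKM at 165 and 187 FPKM at 105 minutes. Albumin labelling at 165 minutes was still far under the 2295 FPKM of the asynchronous culture, and AFP labelling far under its 3964 FPKM.

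The promoters of AFP and of 3 lower genes of the sterol list are printed here because the short motifs counted further on can be seen in them. They are RefSeq sequence of GRCh38.p14 upstream of the annotated start, written 5′ to 3′ on the gene's strand. AFP lies on the plus strand at chr4:73436071-73436220, INSIG1 on the plus strand at chr7:155297728-155297877, MVD on the minus strand at chr16:88663092-88663241 and DHCR7 on the minus strand at chr11:71448514-71448613. The first 3 windows end at the base before the start, and the DHCR7 window runs from 220 to 121 bases before it. Capitals mark TATAAA in AFP, GGGCGG in INSIG1 and DHCR7, and the reverse complement of CACCCCA in MVD. Of the other motifs counted further on, left in lower case, the INSIG1 window also holds 1 TATAAA and 1 CACGTG, the AFP window 1 CCAAT and the MVD window 2 CCAAT, on either strand.
AFP: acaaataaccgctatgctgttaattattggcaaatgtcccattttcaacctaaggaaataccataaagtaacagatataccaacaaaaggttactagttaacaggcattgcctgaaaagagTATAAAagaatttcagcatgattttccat
INSIG1: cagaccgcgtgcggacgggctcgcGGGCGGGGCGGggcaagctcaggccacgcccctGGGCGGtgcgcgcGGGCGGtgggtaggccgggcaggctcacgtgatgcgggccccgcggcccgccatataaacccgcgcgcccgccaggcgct
MVD: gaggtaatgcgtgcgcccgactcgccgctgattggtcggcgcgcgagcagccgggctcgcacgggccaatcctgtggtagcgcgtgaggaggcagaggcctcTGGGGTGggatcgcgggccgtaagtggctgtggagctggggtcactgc
DHCR7: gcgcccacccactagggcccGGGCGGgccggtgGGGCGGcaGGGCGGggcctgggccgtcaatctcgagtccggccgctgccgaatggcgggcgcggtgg

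AKR1C1 and AKR1C2, aldo-keto reductases that break down steroids and reactive aldehydes and are targets of the oxidative stress factor NRF2, were the 2 higher genes among 34 NRF2 and antioxidant genes. That was 5.88% of the list, against 2.13% of all genes. AKR1C1 stood at 1336 FPKM at 165 minutes against 444 FPKM at 105 minutes, a ratio of 3.01 with a counting interval of 2.90 to 3.13. AKR1C2 stood at 954 FPKM at 165 and 321 FPKM at 105 minutes. They are close paralogs and may share reads, so their agreement is not independent. The rest of the list lay on both sides of the all-gene median, with a list median of 0.01, and the superoxide dismutases SOD1 and SOD2 stood at 144 and 610.2 FPKM at 165 minutes against 277 and 976 FPKM at 105 minutes.

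Other strongly labelled higher genes belong to several tissues. SLC25A2, a mitochondrial ornithine carrier, stood at 299 FPKM at 165 minutes from 182 reads against 97.1 FPKM at 105 minutes from 52 reads. SMLR1, a small membrane protein, stood at 487 FPKM at 165 and 182 FPKM at 105 minutes. SSUH2 gave 265 FPKM at 165 and 99.0 FPKM at 105 minutes. These 3 genes were 2.67-fold to 3.06-fold higher. The list also held genes better known from nerve cells and a tumour-associated long noncoding gene. HTR1B, a serotonin receptor, stood at 147 FPKM at 165 and 54.1 FPKM at 105 minutes. NPFF, a neuropeptide precursor, stood at 262 FPKM at 165 and 84.7 FPKM at 105 minutes. The long noncoding gene, CASC19, gave 219 FPKM at 165 and 81.0 FPKM at 105 minutes. NPFF rests on 90 reads at 165 and 25 at 105 minutes, and the counting interval of its ratio of 3.09 ran from 2.00 to 5.11. Its annotation overlaps that of ATF7-NPFF, so reads of these 2 genes may be shared.

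Several of the higher genes are long, among them the neuronal adhesion gene CNTNAP4 and RAB27B, a small GTPase of vesicle secretion. CNTNAP4, annotated at 283 kb, stood at 112 FPKM at 165 minutes against 38.9 FPKM at 105 minutes. RAB27B, at 178 kb, stood at 122 FPKM at 165 and 44.5 FPKM at 105 minutes. ZMYND8, a reader of histone acetylation, stood at 450.0 FPKM at 165 and 189 FPKM at 105 minutes. PLCB1, a phospholipase of G protein signalling, stood at 256 FPKM at 165 and 102 FPKM at 105 minutes. ZBTB20, a liver transcription factor that represses AFP in the mouse, stood at 265 FPKM at 165 and 115 FPKM at 105 minutes. ZMYND8, PLCB1 and ZBTB20 were 2.29-fold to 2.50-fold higher. A membrane scaffold gene and a lipid kinase gene were also higher. DTNA, a dystrobrevin, stood at 243 FPKM at 165 and 99.97 FPKM at 105 minutes. PIK3CB, a catalytic subunit of phosphoinositide 3-kinase, stood at 189.8 FPKM at 165 and 80.9 FPKM at 105 minutes. With the highest transcript value in place of the mean, the DTNA difference was 0.60 and not 1.27 on the log2 scale. ZMYND8, PLCB1, DTNA and PIK3CB were singled out after their values were seen, and each rests on at least 5546 reads in either group.

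The largest ratio among strongly labelled genes belonged to a transcript annotated inside another gene. SND1-IT1, 2.57 kb long and within SND1, stood at 934 FPKM at 165 minutes against 202 FPKM at 105 minutes, a ratio of 4.62 with a counting interval of 3.97 to 5.42. SND1, which encodes a nuclease of the RNA silencing complex, stood at 481 FPKM at 165 and 268 FPKM at 105 minutes over its 440.4 kb. Its annotation lies inside that of SND1, so reads of SND1-IT1 and of the SND1 intron around it cannot be told apart. In the other 5 groups SND1-IT1 ran at 320.1 FPKM at 0, 338 at 40, 186 at 80 and 1309 at 300 minutes and 951 FPKM in the asynchronous culture.

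At lower levels the largest ratios rest on few reads. UGT2B11 and UGT2B28, liver enzymes that glucuronidate steroids and close paralogs of each other, stood at 44.5 and 13.8 FPKM at 165 minutes against 9.88 and 1.88 FPKM at 105 minutes. UGT2B11 rests on 480 reads at 165 and 93 at 105 minutes, a ratio of 4.51 with an interval of 3.60 to 5.69. PAPPA-AS1 and NHLRC1, a ubiquitin ligase gene of glycogen metabolism, had 14 and 10 reads at 165 minutes against 2 reads each at 105 minutes, and their intervals were too wide to place a size, at 1.40 to 55.4 and 0.931 to 41.0.

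**Figure D2:**
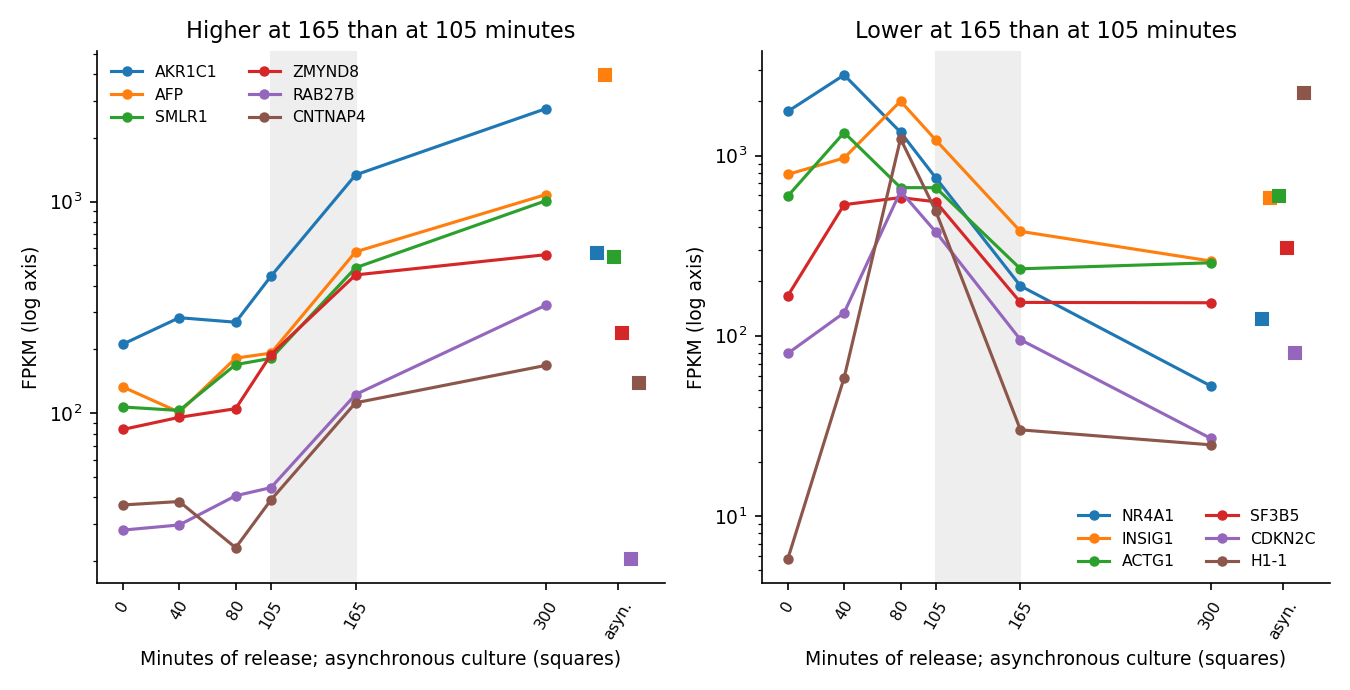
Authors' pooled FPKM (vertical log axis) over minutes of release (horizontal axis) for 6 higher and 6 lower genes, with the step from 105 to 165 minutes shaded and the asynchronous culture as squares. AKR1C1 reached 2748 FPKM at 300 minutes, while H1-1 stood highest in the release at 80 minutes with 1239 FPKM.

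At the lower end stood short genes of many kinds. SCAND1, a SCAN domain protein, stood at 25.8 FPKM at 165 minutes from 65 reads against 215 FPKM at 105 minutes from 473 reads. H2AX, the histone variant phosphorylated at DNA breaks, stood at 149 FPKM at 165 minutes and 742 FPKM at 105 minutes, a ratio of 105 over 165 of 4.96 with an interval of 4.01 to 6.24. Regulators of RNA and of transcription stood beside them. MEX3B, an RNA-binding protein, had 129 FPKM at 165 and 558 FPKM at 105 minutes. SP9, a zinc finger factor, stood at 48.0 FPKM at 165 and 228 FPKM at 105 minutes. NANOS1, a translational repressor of the germ line, stood at 25.5 FPKM at 165 and 114 FPKM at 105 minutes. All 3 were over 4-fold lower on the FPKM + 1 scale, as was ANKRD37, a hypoxia-induced ankyrin repeat gene, with 67.4 FPKM at 165 and 294 FPKM at 105 minutes. Of these 6 genes all but SCAND1, at 161 FPKM there, had been higher still at 80 minutes. For SP9, NANOS1, ANKRD37 and MEX3B the 80 minute values were 293, 281, 676 and 652 FPKM, and for H2AX 1028 FPKM. All 6 but MEX3B overlap other annotated genes, such as CNBD2 for SCAND1 and EIF3A for NANOS1, and may share reads with them.

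UFSP1, a protease of the UFM1 modifier, had 33.7 FPKM from 14 reads at 165 minutes and 145 FPKM from 54 reads at 105 minutes. Long noncoding genes also ranked among the largest differences. SOD2-OT1 stood at 35.2 FPKM at 165 minutes and 176 FPKM at 105 minutes. LINC01465 stood at 111 FPKM at 165 and 478 FPKM at 105 minutes. RASSF1-AS1 stood at 30.9 FPKM at 165 and 136 FPKM at 105 minutes. SOD2-OT1 overlaps SOD2 and ACAT2, RASSF1-AS1 overlaps RASSF1 and LINC01465 overlaps MIRLET7IHG, so each may share reads. The interval for RASSF1-AS1, with 11 reads at 165 and 40 at 105 minutes, was 2.10 to 8.996 for a ratio of 4.39. Below 100 FPKM the largest differences rest on 1 or 2 reads at 165 minutes. GTSE1-DT had 1 read at 165 against 22 at 105 minutes, and LINC01124 had 2 at 165 against 36 at 105 minutes. SYNE1-AS1 had 1 at 165 against 12 at 105 minutes, and MIF, a cytokine gene, had 1 at 165 against 11 at 105 minutes. LINC01124, SYNE1-AS1 and MIF also overlap other annotated genes.

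Immediate early genes, which growth and stress signals switch on without new protein, stood below their 105 minute level nearly throughout. Of 41 that passed the filter 12 (29.3%) were lower, against 5.58% of all genes, and 0 higher. Below 0 lay 40 of the 41, as did 58.2% of all genes, and the list median relative to all genes was -0.52. NR4A1, an orphan nuclear receptor, stood at 189 FPKM at 165 minutes against 751 FPKM at 105 minutes. NR4A3 stood at 142 FPKM at 165 and 548 FPKM at 105 minutes. Both receptors were more than 3-fold lower, while the AP-1 and zinc finger factors differed less. FOS, a subunit of AP-1, gave 455 FPKM at 165 and 1078 FPKM at 105 minutes. Its paralog FOSB gave 1967 FPKM at 165 and 4516 FPKM at 105 minutes. EGR1, a zinc finger factor of growth responses, stood at 669 FPKM at 165 and 1478 FPKM at 105 minutes. Those 3 genes were 2.21-fold to 2.37-fold lower. ATF3, a stress-induced factor, had 862 FPKM at 165 and 2119.7 FPKM at 105 minutes. EGR1, FOSB and ATF3 were chosen after their values were seen. The step lies on a longer slope for these genes. NR4A1 ran at 1755 FPKM at 0, 2799 at 40, 1347 at 80, 751 at 105, 189 at 165 and 52.6 FPKM at 300 minutes.

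Not every early gene was on that slope. MYC, the growth regulator, was the 1 list member above 0, at 4341 FPKM at 165 minutes against 3332 FPKM at 105 minutes, its highest value in the table. JUN, the partner of FOS in AP-1, stayed within 2-fold, at 4755 FPKM at 165 and 6589.7 FPKM at 105 minutes. ZFP36L1, a decay factor for AU-rich mRNA, hardly differed, at 4099 FPKM at 165 and 4172 FPKM at 105 minutes.

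Genes of the cell cycle lay on both sides of their 105 minute level. Among 29 G1 cyclins, kinases and inhibitors 2 were lower and 0 higher, a share near that of all genes, with a median of -0.23, and of -0.36 relative to genes of the same length. CDKN2C, an inhibitor of CDK4 and CDK6, stood at 95.0 FPKM at 165 minutes against 377 FPKM at 105 minutes, a ratio of 105 over 165 of 3.96 with an interval of 3.61 to 4.36. CCNE2, a cyclin of S phase entry, stood at 67.1 FPKM at 165 and 197 FPKM at 105 minutes. CCND1, the cyclin of G1, stood at 2623 FPKM at 165 and 3279 FPKM at 105 minutes, within 2-fold, while its partner kinase CDK6 stood at 461 FPKM at 165 and 323 FPKM at 105 minutes. CCNE1, E2F1 and CDKN1A were below their 105 minute level without reaching 2-fold. CCNE1, the other cyclin of S phase entry, had 74.3 FPKM at 165 and 136 FPKM at 105 minutes. E2F1, the activator of S phase genes, stood at 154 FPKM at 165 and 189.5 FPKM at 105 minutes. CDKN1A, the p53-induced inhibitor, stood at 369 FPKM at 165 and 645 FPKM at 105 minutes.

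The 50 genes of DNA replication had a median of 0.10, with 1 (2%) higher and 0 lower. The shares were 2.13% and 5.58% of all genes and 0.925% and 3.92% of protein-coding genes. MCM5, a subunit of the replicative helicase, was the higher one, at 84.5 FPKM at 165 minutes against 37.2 FPKM at 105 minutes, and its partner MCM3 stood at 908 FPKM at 165 and 519 FPKM at 105 minutes, 1.75-fold apart. The S phase enzymes RRM2, of nucleotide reduction, and TK1, thymidine kinase, lay on the other side, at 174 and 34.3 FPKM at 165 minutes against 323 and 69.3 FPKM at 105 minutes. PCNA, the sliding clamp, stood at 297 FPKM at 165 and 450.0 FPKM at 105 minutes. For MCM5 the series of values was 39.1 FPKM at 0, 44.8 at 40, 54.9 at 80, 37.2 at 105, 84.5 at 165 and 177 FPKM at 300 minutes, against 237 FPKM in the asynchronous culture.

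Mitotic genes, such as kinases and motors of the spindle, showed small differences in 1 direction. None of the 44 passed 2-fold, 43 lay below 0, against 58.2% of all genes, and their median was -0.34. AURKB, a kinase of chromosome segregation, stood at 66.7 FPKM at 165 minutes and 130.4 FPKM at 105 minutes. The motor KIF23 stood at 135 FPKM at 165 and 239 FPKM at 105 minutes. BUB3, of the spindle checkpoint, was the member above 0, at 543 FPKM at 165 and 514 FPKM at 105 minutes.

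Replication histone genes, which supply core histones in S phase, were among the lower ones. Of 46 that passed the filter 12 (26.1%) were lower and 1 (2.17%) higher, against 5.58% and 2.13% of all genes. The median was -0.42 relative to all genes and -0.25 relative to genes of the same length. H1-1, H2BC4 and H4C1 were chosen as examples after their values were seen. H1-1, a linker histone, stood at 30.03 FPKM at 165 minutes from 10 reads against 491 FPKM at 105 minutes from 140 reads. H2BC4, a core histone H2B gene, stood at 33.3 FPKM at 165 minutes from 154 reads and 364 FPKM at 105 minutes from 1471 reads, over an annotation of 10.8 kb. H4C1, a core histone H4 gene, had 125 FPKM at 165 and 484 FPKM at 105 minutes. H1-3 went against the list, at 706 FPKM at 165 and 426 FPKM at 105 minutes, and the 1 higher member, H2AC18, rests on 3 reads at 165 minutes against 1 at 105 minutes. These genes are short and near-identical, so counting can divide their reads among copies. For H1-1 the highest release value was 1239 FPKM at 80 minutes, against 5.75 FPKM at 0 minutes.

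Sterol and fatty acid synthesis was lower in part. Of 43 genes 6 (14%) were lower, against 5.58% of all genes, and 0 higher. Below 0 lay 36 of the 43, against 58.2% of all genes. The median was -0.43 relative to all genes and -0.42 relative to genes of the same length. INSIG1, which holds the sterol sensor in the endoplasmic reticulum, stood at 379 FPKM at 165 minutes against 1218 FPKM at 105 minutes, a ratio of 105 over 165 of 3.21 with an interval of 3.05 to 3.38. DHCR7, which catalyses the last step to cholesterol, stood at 145 FPKM at 165 and 459.6 FPKM at 105 minutes. SQLE, squalene epoxidase, stood at 152 FPKM at 165 and 387 FPKM at 105 minutes. The differences of these 3 genes were 2.54-fold or larger. MVD, a mevalonate pathway enzyme, stood at 191 FPKM at 165 and 498 FPKM at 105 minutes. STARD4, a sterol carrier, stood at 125 FPKM at 165 and 286 FPKM at 105 minutes. HSD17B7, a reductase of cholesterol synthesis, had 48.5 FPKM at 165 and 106 FPKM at 105 minutes. All 6 had their highest release value at 80 minutes.

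Other members differed less. HMGCS1, an early synthase of the mevalonate pathway, had 2549 FPKM at 165 minutes and 3283 FPKM at 105 minutes. GPAM, which starts glycerolipid synthesis, was nearest to 2-fold on the higher side, at 17.5 FPKM at 165 and 8.46 FPKM at 105 minutes.

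The cytoskeleton lists showed lower labelling of several short members. Among 18 tubulin genes 6 (33.3%) were lower, against 5.58% of all genes, and 0 higher, with a median of -0.34. TUBA1A, an alpha tubulin of neurons, stood at 19.5 FPKM at 165 minutes against 77.0 FPKM at 105 minutes. TUBA4A, another alpha tubulin, had 34.9 FPKM at 165 and 116 FPKM at 105 minutes. The other 4 were beta tubulins, less than 3-fold lower. TUBB3 gave 302 FPKM at 165 and 743 FPKM at 105 minutes. TUBB4B gave 202 FPKM at 165 and 494 FPKM at 105 minutes. TUBB2B gave 496 FPKM at 165 and 1144 FPKM at 105 minutes. The least labelled of them, TUBB4A, gave 15.1 FPKM at 165 and 44.0 FPKM at 105 minutes. TUBB, the most widely used beta tubulin, did not follow them, at 245 FPKM at 165 and 268 FPKM at 105 minutes. Of 41 actin and SRF genes ACTG1, gamma actin, was the 1 lower gene, at 235 FPKM at 165 and 663 FPKM at 105 minutes. ACTB, beta actin, just missed 2-fold, at 237 FPKM at 165 and 457 FPKM at 105 minutes. The cofactors MRTFA and MRTFB, which carry actin signals to SRF, stood at 359 and 92.2 FPKM at 165 minutes against 206 and 49.0 FPKM at 105 minutes. The actin list had a median of -0.18.

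Several developmental signalling lists had medians below that of all genes. Notch and HES genes had the lowest list median, -0.66, with 6 of 18 (33.3%) lower, against 5.58% of all genes, and 0 higher. NRARP, a feedback inhibitor of Notch, stood at 46.7 FPKM at 165 minutes against 133 FPKM at 105 minutes. Transcription factors of the HES family made up 3 of the 6. HES7 gave 10.7 FPKM at 165 and 34.6 FPKM at 105 minutes. HES4 gave 170.4 FPKM at 165 and 383 FPKM at 105 minutes. HES6 gave 31.4 FPKM at 165 and 63.9 FPKM at 105 minutes, the difference nearest to 2-fold. The Notch ligands DLL4 and DLL1 were the other members, at 32.0 and 5.61 FPKM at 165 minutes against 72.8 and 13.5 FPKM at 105 minutes. HES1, the main Notch effector in many tissues, stood at 4036 FPKM at 165 and 7141 FPKM at 105 minutes. The ligand JAG1 stood at 2628 FPKM at 165 and 2136 FPKM at 105 minutes. Both of these strongly labelled members stayed within 2-fold.

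Of 26 WNT pathway genes 5 (19.2%) were lower and 0 higher, with a median of -0.29. The shares of all genes were 5.58% lower and 2.13% higher. SP5 and AXIN2, both targets of beta-catenin, stood at 32.2 and 92.4 FPKM at 165 minutes against 129 and 249 FPKM at 105 minutes. The receptors FZD1, FZD7 and FZD8 stood at 132, 381 and 62.5 FPKM at 165 minutes and 398, 932 and 141 FPKM at 105 minutes. The receptor LGR4 lay on the other side, at 1512 FPKM at 165 and 924 FPKM at 105 minutes. Among 30 TGF-beta and BMP genes, with a median of -0.32, 3 (10%) were lower and 1 (3.33%) higher. FST, the activin antagonist follistatin, stood at 146 FPKM at 165 and 399.6 FPKM at 105 minutes. TGFBR1, a receptor kinase, had 126 FPKM at 165 and 284 FPKM at 105 minutes. ID4, a BMP target, stood at 1158 FPKM at 165 and 2430.2 FPKM at 105 minutes. The 1 higher gene was the long gene LTBP1, a TGF-beta binding protein, at 161 FPKM at 165 and 72.1 FPKM at 105 minutes. The 29 YAP-TEAD targets had a median of 0.07, and of -0.13 relative to genes of the same length. Of them 2 (6.9%) were lower, a share near that of all genes. TEAD4 stood at 103 FPKM at 165 and 215 FPKM at 105 minutes and ARHGEF17 at 90.0 FPKM at 165 and 203 FPKM at 105 minutes.

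Stress and metabolic lists held between 1 and 5 lower genes each. The lower share was 12.5% for glycolysis and hypoxia and 6.98% for the ATF4 list, against 5.58% of all genes and 3.92% of protein-coding genes. It was 3.03% to 4.55% for the heat shock, p53, NF-kB, interferon and circadian lists, under the share of all genes. Of these only the circadian list, at 4.55%, lay above the protein-coding share. Glycolysis and hypoxia genes had 5 of 40 lower, with a median of -0.31, ANKRD37 among them. BNIP3, of mitophagy, stood at 95.1 FPKM at 165 minutes and 225 FPKM at 105 minutes. NDRG1, a stress-induced gene, had 208 FPKM at 165 and 487 FPKM at 105 minutes. An enzyme and a transporter of sugar use were also lower. The aldolase ALDOA gave 216 FPKM at 165 and 459 FPKM at 105 minutes. The glucose transporter SLC2A1 gave 206 FPKM at 165 and 431 FPKM at 105 minutes. PKM, pyruvate kinase, stood above its 105 minute level, at 2437 FPKM at 165 and 2029 FPKM at 105 minutes. Of 43 ATF4 and unfolded protein response genes, with a median of -0.16, 3 were lower, SDF2L1 and CRELD2 of the endoplasmic reticulum and the oxidase ERO1B, while the cystine transporter SLC7A11 stood at 306 FPKM at 165 and 159.5 FPKM at 105 minutes. The 33 heat shock genes had a median of -0.30, and of -0.17 relative to genes of the same length, with 1 lower, HSPA6, on 8 reads at 165 and 24 at 105 minutes. Among 27 p53 targets, with a median of -0.41, PMAIP1, a cell death gene, was the 1 lower gene at 186 FPKM at 165 and 378 FPKM at 105 minutes, and BBC3 stood at 222 FPKM at 165 and 437 FPKM at 105 minutes. The 32 NF-kB genes had a median of -0.16 with the cytokine gene IL11 lower, at 259 FPKM at 165 and 589.9 FPKM at 105 minutes. Of 33 interferon-stimulated genes, with a median of -0.15, HLA-B was lower and IFITM3 higher, on 17 reads or fewer in either group. Circadian genes had a median of -0.31 with 1 of 22 lower, DBP, at 16.5 FPKM at 165 and 34.2 FPKM at 105 minutes.

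The liver transcription factors had a median of 0.01, with 1 (2.86%) higher and 4 (11.4%) lower of 35, against 2.13% and 5.58% of all genes. CEBPA, a factor of hepatocyte differentiation, stood at 39.4 FPKM at 165 minutes from 44 reads against 123 FPKM at 105 minutes from 120 reads. NR2F1, an orphan nuclear receptor, had 278 FPKM at 165 and 730.3 FPKM at 105 minutes. The bile acid repressor NR0B2 stood at 12.2 FPKM at 165 and 41.5 FPKM at 105 minutes. KLF15, a factor of fasting metabolism, was 2.11-fold lower, at 17.7 FPKM at 165 and 38.6 FPKM at 105 minutes. HNF4A, which drives hepatocyte genes, stood at 1553 FPKM at 165 minutes against 1375 FPKM at 105 minutes.

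The machinery of growth differed little, with lower shares of 0% to 3.33% by list. The lower share was 5.58% over all genes and 3.92% over protein-coding genes. Lists relative to all genes had medians of 0.10 for ribosome biogenesis, with 0 of 54 past 2-fold, 0.04 for mitochondrial ribosomal proteins, with 1 of 74 lower, MRPL55, and 0.04 for the proteasome, with 0 of 36 past 2-fold. Splicing factors had 0.02 with 2 of 60 lower, SF3B5 at 153 FPKM at 165 and 554 FPKM at 105 minutes and SNRPD2 at 122 FPKM at 165 and 249 FPKM at 105 minutes. Cytosolic ribosomal proteins had -0.13, and 0.02 relative to genes of the same length, with 2 of 79 lower, FAU at 234 FPKM at 165 and 634 FPKM at 105 minutes and RPS28 at 90.8 FPKM at 165 and 243 FPKM at 105 minutes. The respiratory chain had -0.07 with 1 of 73 lower, NDUFC1, and RNA polymerase II, TFIID and Mediator had -0.03 with 1 of 62 lower, POLR2L. These lower members are annotated at 0.69 kb for SF3B5 to 12.6 kb for NDUFC1.

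The highest list median, 0.25, was that of the aminoacyl-tRNA synthetases, which charge tRNAs with amino acids: 18 of 23 lay above 0, against 41.8% of all genes, and 0 passed 2-fold. FARSB, a subunit for phenylalanine, gave 173 FPKM at 165 minutes against 109 FPKM at 105 minutes. LARS1, for leucine, gave 271 FPKM at 165 and 181 FPKM at 105 minutes. Relative to genes of the same length the median was likewise 0.25. Integrins, matrix and adhesion genes had 0.19 and chromatin modifiers 0.17, each with 0 past 2-fold, but relative to genes of the same length these medians were 0.02 and -0.01. Zinc finger genes of chromosome 19 had 0.15, with 1 of 165 (0.606%) higher, ZNF582, at 217 FPKM at 165 and 104 FPKM at 105 minutes. The shares of all genes were 2.13% higher and 5.58% lower. The nuclear pore list had 0.11 with 1 of 45 (2.22%) lower, EMD, and lysosome and autophagy genes had -0.06 with 0 of 49 past 2-fold. Host genes of snoRNAs and nuclear noncoding RNAs had 0.02, with 2 of 30 (6.67%) lower, MIR17HG and HOTTIP. MALAT1 stood at 3128 FPKM at 165 and 4199 FPKM at 105 minutes. Stroma and endothelium markers had a median of 0.02 with 1 of 7 (14.3%) lower, DES. Blood cell markers had -0.40 with 3 of 12 (25%) lower. Among them were CD79A and HBA2, at 6.52 and 2.69 FPKM at 165 minutes against 37.8 and 10.3 FPKM at 105 minutes. CD79A rests on 11 reads at 165 and 58 at 105 minutes. HBA2 rests on 1 read at 165 and 3 at 105 minutes, and the interval of its ratio of 105 over 165, 0.276 to 180, places no direction. Summed over the 23 blood markers in the table the level was 708 FPKM at 165 and 1054 FPKM at 105 minutes, of which the lysosomal gene CD68 gave 431 FPKM at 165 and 696 FPKM at 105 minutes. HBB and PPBP were listed at 0 in both groups, and PTPRC stood at 1.85 FPKM at 165 and 2.60 FPKM at 105 minutes.

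**Figure D3:**
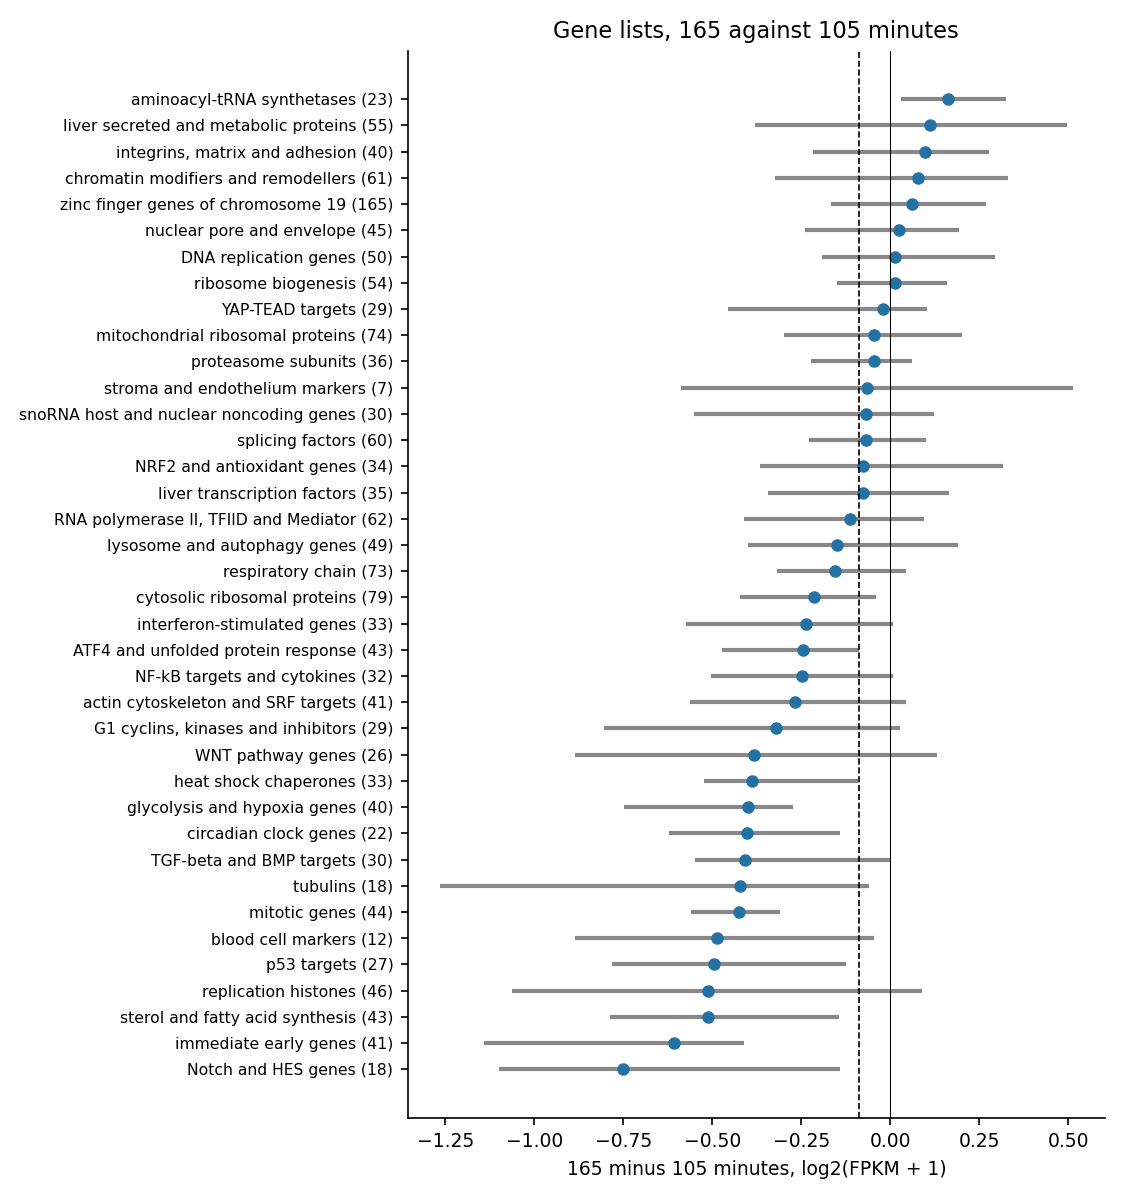
Median (point) and middle range of the members (bar, between the outer quartiles) of the 165 minus 105 minute difference on log2(FPKM + 1) for 38 gene lists, with the number of members that passed the filter in brackets. The dashed line is the median of all genes, -0.09, and the lists run from aminoacyl-tRNA synthetases at the top to Notch and HES genes at the bottom.

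Annotated gene length ordered the median differences. Among protein-coding genes the median was -0.38 under 5 kb, -0.20 from 5 to 20 kb, -0.10 from 20 to 50 kb, -0.02 from 50 to 100 kb, 0.13 from 100 to 200 kb and 0.34 over 200 kb. Of 1434 genes under 5 kb 36 were higher (2.51%) and 228 lower (15.9%), while of 808 genes over 200 kb 29 were higher (3.59%) and 0 lower. In the bins between, from short to long, 0.647%, 0.238%, 0.563% and 1% were higher and 5.03%, 2.12%, 1.21% and 0.334% lower. The lower share thus fell with length, while the higher share was largest in the shortest and longest bins. The 126 genes over 500 kb had a median of 0.39. Long noncoding genes ran in the same order, with medians of -0.45 under 5 kb and 0.24 over 200 kb. The lower genes had a median length of 4.93 kb and the higher ones 14.6 kb, against 26.4 kb for all 15557. Set against genes of the same length in place of all genes, the median of 5 of the 38 lists turned sign, that of 14 kept its sign and moved by over 1.5 times, and that of 19 moved by less. Beside the YAP-TEAD targets and cytosolic ribosomal proteins given above, those that turned were the respiratory chain, at 0.04 relative to genes of the same length, RNA polymerase II, TFIID and Mediator, at 0.01, and chromatin modifiers, at -0.01. On that scale WNT genes came to -0.19, tubulins and blood cell markers to -0.25 each, mitotic genes to -0.35, immediate early genes to -0.38 and Notch and HES genes to -0.68.

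Long higher genes came from unrelated pathways. PLXNA2, a semaphorin receptor, stood at 388 FPKM at 165 minutes against 172 FPKM at 105 minutes. SIPA1L2, a GTPase activator, stood at 467 FPKM at 165 and 213 FPKM at 105 minutes. AKAP13, a kinase anchor, stood at 378 FPKM at 165 and 169 FPKM at 105 minutes. These 3 were 2.18-fold to 2.24-fold higher. SVIL, the actin binder supervillin, had 224 FPKM at 165 and 100.2 FPKM at 105 minutes. NRCAM, a neural adhesion protein, stood at 222 FPKM at 165 and 98.1 FPKM at 105 minutes. TCF12, a helix-loop-helix factor, gave 175 FPKM at 165 and 79.3 FPKM at 105 minutes. These 6 of the 29 were chosen after their values were seen, as the best labelled apart from genes named above. The lowest release value was at 80 minutes for 5 of the 6 and at 0 minutes for PLXNA2.

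**Figure D4:**
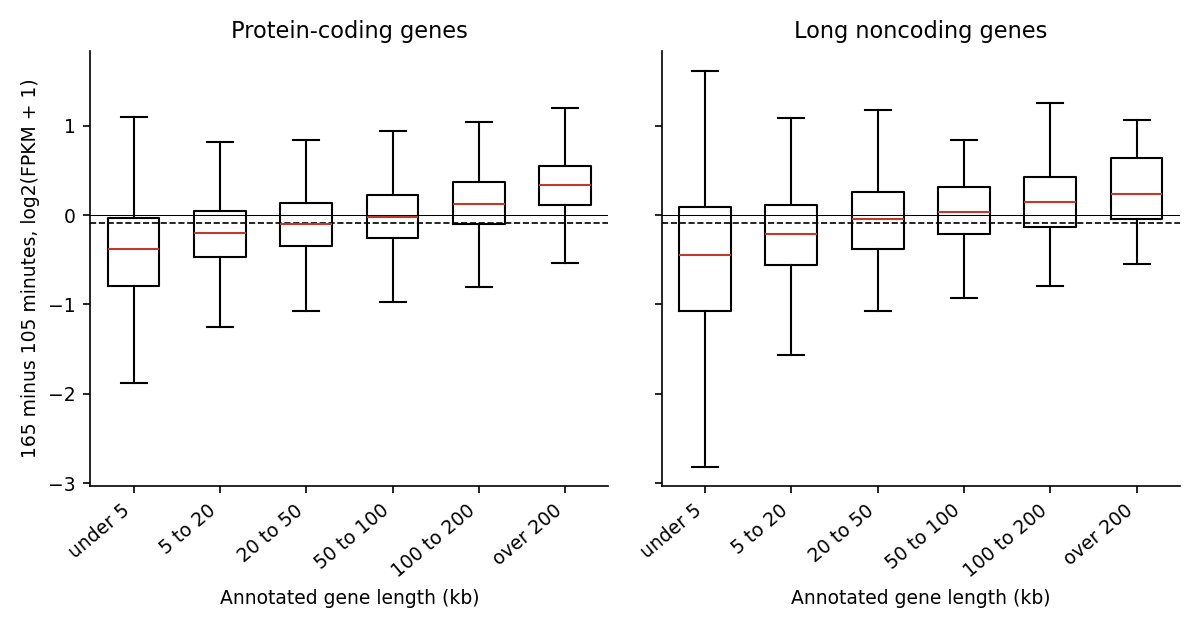
Difference of 165 minus 105 minutes on log2(FPKM + 1) by annotated gene length, for protein-coding and long noncoding genes. Boxes run between the outer quartiles, red lines are medians, whiskers reach the farthest gene within 1.5 box lengths, genes beyond are not drawn, and the dashed line is the all-gene median of -0.09.

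Transcripts that start next to a gene and run away from it, named with the suffix -DT, lay mostly below their partners. This class and the others by symbol were chosen after the values were seen. Of 181 such transcripts 1 was higher and 29 (16.0%) lower, 139 (76.8%) lay below 0, and the median was -0.39. Over all long noncoding genes 10.3% were lower and 60.6% lay below 0. In 177 pairs with a measured partner the median difference was -0.41 for the divergent transcript and -0.07 for the partner, and 116 of the 177 divergent transcripts lay below their partner. The median length was 10.3 kb for the divergent transcripts and 38.9 kb for the partners, and relative to genes of the same length the medians were -0.28 and -0.02. KDM7A-DT stood at 21.5 FPKM at 165 minutes against 128 FPKM at 105 minutes, while KDM7A, a histone demethylase, stood at 83.6 FPKM at 165 and 113 FPKM at 105 minutes. PPP3CA-DT stood at 102 FPKM at 165 and 419 FPKM at 105 minutes, while PPP3CA, the calcineurin catalytic subunit, stood at 220.1 FPKM at 165 and 172 FPKM at 105 minutes.

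Other noncoding classes were chosen by symbol in the same way. Over all long noncoding genes 3.38% were higher and 10.3% lower. The 591 antisense transcripts had a median of -0.29, with 14 (2.37%) higher and 78 (13.2%) lower. The 435 long intergenic (LINC) genes had 0.05, with 24 (5.52%) higher and 27 (6.21%) lower, and the 27 transcripts named as intronic had 0.17, with 3 (11.1%) higher and 0 lower. Median reads of the classes by symbol at 105 minutes ran from 136 in LINC genes to 268 in divergent transcripts, against 1234 over all coding and long noncoding genes.

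**Figure D5:**
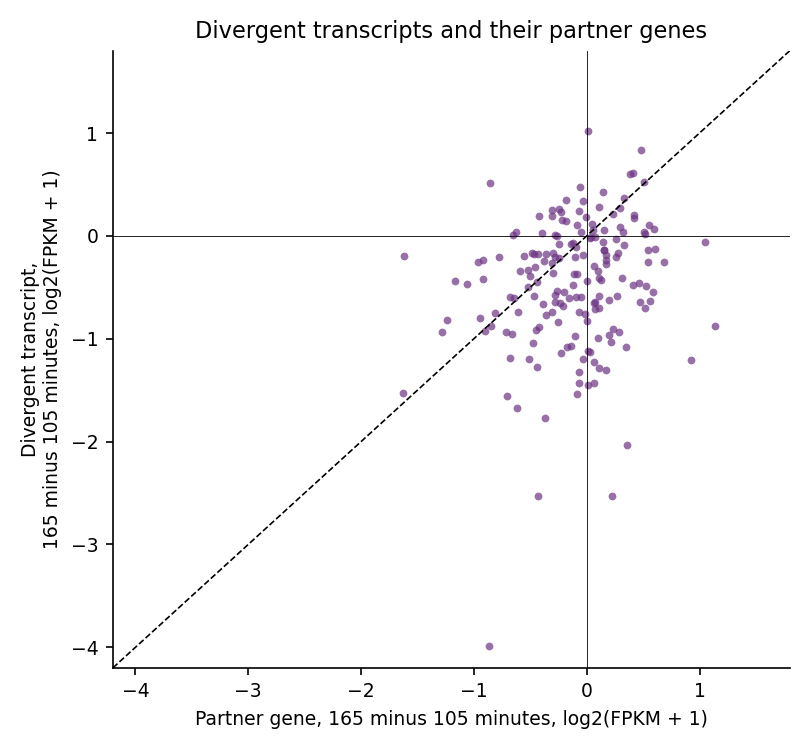
Each point is 1 of 177 pairs of a divergent transcript (vertical axis) and its partner gene (horizontal axis), both as 165 minus 105 minutes on log2(FPKM + 1), with equal differences on the dashed line. Of the pairs, 116 lie below the line.

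Short motifs in the promoters of called genes were counted beside those of all tested genes, with no test. Each motif was looked for on both strands in the RefSeq window from 250 bases before to 50 after the start, in 147 higher and 573 lower genes with a promoter on file. GGGCGG, the core of GC boxes bound by SP1, was in 22.4% of higher and 71.2% of lower genes, against 65.0% of 12562 tested genes and 44.6% of all 27305 promoters. TATAAA was in 21.1% of higher and 12.2% of lower genes, against 6.88% of tested genes and 12% of all promoters. CCGGAAG, an ETS motif, was in 2.72% of higher genes, 4 of 147, and in 9.95% of lower genes. Its share was 17.6% in tested genes and 10.7% in all promoters. A match is a run of letters and not a measured binding site, and a promoter without one lacks only these letters in this window.

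The remaining 8 motifs were counted in the same windows. In higher and lower genes, then tested genes and all promoters, the shares were 2.72%, 7.85%, 5.29% and 3.63% for the cAMP response element TGACGTC, 7.48%, 4.36%, 3.53% and 4.92% for the AP-1 site TGACTCA, and 6.12%, 0.873%, 1.54% and 2.69% for TGATGCA. For the E-box CACGTG they were 2.72%, 9.77%, 9.66% and 7.43%, for CCAAT 40.1%, 45.0%, 37.1% and 35.7%, and for CACCCCA 4.76%, 7.68%, 7.47% and 7.83%. For the E2F motifs TTCCCGC and TTGGCGC, they were 3.40%, 9.95%, 9.47% and 6.56%, and 0.68%, 4.54%, 4.74% and 3.12%. Some of these shares rest on small counts and are loose. TGATGCA was in 9 higher and 5 lower promoters and TTGGCGC in 1 higher promoter. The E-box, ETS and cAMP response motifs were in 4 higher promoters each. In the 35 sterol and fatty acid promoters on file, CACCCCA was in 20%, or 7 promoters, CCAAT in 62.9% and GGGCGG in 85.7%. The shares of these 3 in tested genes were 7.47%, 37.1% and 65.0%. CACGTG and TTCCCGC were in 14.3% of the sterol promoters each, CCGGAAG in 11.4% and TTGGCGC in 8.57%. TATAAA and TGACGTC were in 5.71% each, TGACTCA in 2.86% and TGATGCA in 0%. The INSIG1 window printed above holds 4 copies of GGGCGG, with the first pair overlapping, and the DHCR7 window 3. The AFP window holds 1 TATAAA and the MVD window 1 CACCCCA.

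Columns outside the comparison differed in the same direction for most called genes. Between 80 and 300 minutes, columns that it does not use, 172 of the 186 higher genes stood above their 80 minute level at 300 minutes and 13 below, with a median difference of 1.97 on the log2 scale. Of the 719 lower genes 693 stood below and 26 above, with a median of -1.94. Over all 15557 genes 6529 stood above and 9027 below, with a median of -0.16.

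The 165 minute values stood nearer to the asynchronous culture than the 105 minute values. Within 2-fold of that culture were 12124 of 15557 genes (77.9%) at 165 minutes and 11102 (71.4%) at 105 minutes, and the median absolute difference was 0.50 at 165 and 0.61 at 105 minutes on the log2 scale. At 165 minutes 1971 genes stood at least 2-fold above the culture, against 2934 at 105 minutes. The number at least 2-fold below it was 1462 at 165 and 1521 at 105 minutes. Single called genes could lie on either side of the culture: RAB27B stood at 122 FPKM at 165 minutes with 20.4 FPKM in the culture, and CDKN2C at 95.0 FPKM at 165 minutes with 79.96 FPKM in the culture, while AFP and H1-1 stood below it.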

How the data were processed

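Nascent EU-RNA of HUH7 cells had been captured by biotin click chemistry before stranded, rRNA-depleted library preparation, per the labels' protocols. Per the file headers, the values the authors deposited are FPKM per RefSeq transcript, 1 column for each of 7 groups of 3 libraries, pooled by the authors. Bowtie2 2.2.9, TopHat, bcl2fastq and bedtools, with build hg19, are listed in the submitters' processing notes. No source used here gives the counting method, its use of strand, any background subtraction or the way of pooling. Samples without EU or with spike-in RNA were not analysed here. No background therefore stands beside these values, and FPKM compare a gene with other captured RNA, not total transcription.

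Of 48205 transcripts, 47127 (97.8%) matched a symbol in a RefSeq table of GRCh38.p14, giving 24242 genes, each the mean of its distinct value vectors. Names, lengths, overlaps and promoters come from that assembly. Differences were taken on log2(FPKM + 1), 165 minus 105 minutes, which understates the change of low genes, in genes with at least 10 FPKM in either column. With 1 pooled value a group there is no test. Scripts used Python 3.11.15, pandas 2.3.3, NumPy 2.4.6 and SciPy 1.17.1 and were tested on simulated data. Read equivalents are FPKM times annotated length over the column's step, and ratio intervals are exact binomial.

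The genes and the 38 lists (1738 symbols, 1613 past the filter) were chosen with earlier results of these data known. Genes named were the 12 largest differences in each direction among coding and long noncoding genes whose 2 columns reached 100 FPKM and 5 FPKM, the 5 largest with limits of 10 FPKM and 1 FPKM, up to 4 members of each list and a set of known genes. Further called members of some lists, partners of named genes and others, among them EGR1, FOSB, ATF3, SQLE, HMGCS1, TUBB, FGG, HES1, ACTG1, MCM3, ZBTB20, H1-1, H2BC4, H4C1, SND1, KDM7A, PPP3CA and PPP3CA-DT, were named after their values were seen. Multicopy families and small RNAs were left out of the ranking. Pseudocount, filter, scaling and transcript collapse were varied. Some genes that this rule names are not reported here.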

Additional observations from a re-analysis of the deposited data

How the results depend on the processing

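The counts of 370 higher and 969 lower genes moved by over 1.5 times under few of the alternatives. With a filter of 1 FPKM, and with no filter, 618 genes were higher, and 1283 were lower. Asking also for at least 50 read equivalents in the higher column, an alternative added after the data were seen, left 143 higher and 556 lower. Otherwise higher counts ran from 271 with a filter of 30 FPKM to 450 with equal medians, and lower counts from 714 with quantile normalization to 1015 with a pseudocount of 0.1 FPKM. Quantile normalization put the all-gene median at 0.02 in place of -0.09, and higher genes made up 37.3% of calls there and 27.6% in the counts reported. Of 98 named genes past 2-fold, 7 came under it with equal medians, 9 with quantile normalization, 7 with a pseudocount of 5 FPKM and 1, DTNA, with the highest transcript value. PMAIP1, SNRPD2, TEAD4, EMD, POLR2L, DBP and MIR17HG were those under it with equal medians, all between -1.07 and -1.004 as reported. GPAM and SLC7A11 passed 2-fold with equal medians, at 1.05 and 1.02. No named gene or list median turned its direction where it was called. The cause was not tested. No paired analysis was possible because the table gives 1 pooled column per group, and leaving out a replicate could not be run for the same reason. Genes under 1 kb rest on few reads, so their ratios are loose.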
